A study of Homo sapiens with 6 samples.

Results

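Keratins are the intermediate filament proteins of epithelial cells, and the genes described here are KRT8, KRT18, KRT19, KRT14, KRT10, KRT5, KRT15 and KRT17, chosen by name as keratins of luminal and basal epithelium. Of these 8 genes, 5 (KRT8, KRT18, KRT19, KRT14 and KRT10) were among the 16000 genes of the table. KRT5, KRT15 and KRT17 were not among its rows, whose lowest mean was 9.65 normalized reads, and were not analysed here. RNA selected by its poly(A) tail was sequenced from LNCaP, an established line of human prostate cancer cells that responds to androgen. Staining was with ALDEFLUOR, whose fluorescence reports aldehyde dehydrogenase (ALDH) activity. The 3 ALDH high samples came from the 10% of cells with the most signal and the 3 ALDH low samples from the 10% with the least, and both were grown in RPMI-1640 with 10% fetal bovine serum. No genotype or drug distinguishes the groups, and the time after sorting is not stated. Whether replicates were sorted independently is not stated, and p-values here reflect only how these samples spread. In bulk RNA, fewer cells of a type and less RNA per cell cannot be told apart.

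Keratins form filaments as pairs of a type I (acidic) and a type II (basic) chain. The partners are encoded in a pair of gene clusters, with the type I gene KRT18 lying beside the type II gene KRT8. KRT8 and KRT18 are the pair of simple and luminal epithelia, in prostate as in other glands, while KRT5 with KRT14 or KRT15 marks basal cells. KRT19 is a type I keratin found in luminal and intermediate cells, KRT17 is a basal and wound-induced type I keratin, and KRT10 is known from the differentiating layers of the epidermis.

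The libraries held 23721265 to 28651598 recovered reads on genes in ALDH high, against 26891790 to 30467638 in ALDH low. They did not separate by group. On the first principal component of the 500 most variable genes (69.7% of their variance), libraries 1 and 3 of ALDH high fell on one side with library 2 of ALDH low, and the remaining libraries on the other. KRT6C was the one keratin among those 500 genes. ALDH high 2 and ALDH low 2 thus lay with samples of the other group, and the log2 differences of the keratins and of PLEC, DST and CD24 are given below with both of them and without them. Leaving them out enlarges the difference of any gene that follows this component. The values without them are therefore no independent support for a difference. Whether these 2 samples were exchanged cannot be told from the files, and every library is grouped here by its label. Luminal markers were abundant: 11 of the 13 genes listed were in the table and summed to 176552 to 185526 normalized reads in ALDH high libraries and 172990 to 193904 in ALDH low libraries. KLK3 alone averaged 86108 normalized reads over the 6 libraries. Of 15 basal markers 10 were in the table. They summed to 14199 to 24534 normalized reads in ALDH high libraries and 14577 to 24674.5 in ALDH low libraries. TP63, NGFR and CD44 were not among the rows of the table. The 6 club and hillock markers, among them KRT13, KRT4 and KRT7, were also not among its rows. The table held 3 of 7 neuroendocrine, 1 of 6 fibroblast, 3 of 5 smooth muscle, 1 of 4 endothelial and 1 of 5 leukocyte markers.

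Between ALDH high and ALDH low, no keratin passed an adjusted p of 0.05 with limma on log2(normalized reads + 1), and neither did any other gene. Limma called 0% of the 16000 genes, and 338 of them (2.11%) had an unadjusted p under 0.05. On the recovered reads edgeR and DESeq2 also called 0, with 357 and 355 genes at an unadjusted p under 0.05. None of the 5 keratins of luminal and basal epithelium had an unadjusted limma p under 0.05, and for each of the 5 the values of the groups overlapped, where 6.99% of all genes had groups without overlap.

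KRT8, the type II chain of the luminal pair, lies on chromosome 12 (GRCh38, 52897187 to 52949954, minus strand). It had 16521, 15720 and 17961 normalized reads in libraries 1, 2 and 3 of ALDH high, and 14376, 15844 and 21943 in libraries 1, 2 and 3 of ALDH low. The ALDH high values lay inside the range of the ALDH low values, which holds both the lowest and the highest library. The group means were 16734 ± 1136 in ALDH high, against 17387 ± 4013 in ALDH low (SD, 3 libraries each). On the log2 scale the difference was −0.03 (95% interval −0.45 to 0.38, limma adjusted p = 0.988), so that a change of 2-fold either way lay outside the interval. Its sign turned without ALDH low 3 (0.15) and without ALDH high 2 (0.01), and it was −0.04 without ALDH high 2 and ALDH low 2 together.

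KRT18, the type I partner of KRT8, lies beside it (chromosome 12, 52948871 to 52952901, plus strand). Its levels were 11861, 12512 and 14222 normalized reads in libraries 1, 2 and 3 of ALDH high, against 9031, 11629 and 16996 in libraries 1, 2 and 3 of ALDH low. As with KRT8, ALDH low 1 was the lowest library and ALDH low 3 the highest, with the ALDH high libraries between them. On the log2 scale the difference was 0.08 (95% interval −0.41 to 0.57, limma adjusted p = 0.988). Leaving out ALDH low 1 turned its sign (−0.13), while leaving out ALDH low 3 gave 0.32 and leaving out both libraries numbered 2 gave 0.07.

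**Figure D1:**
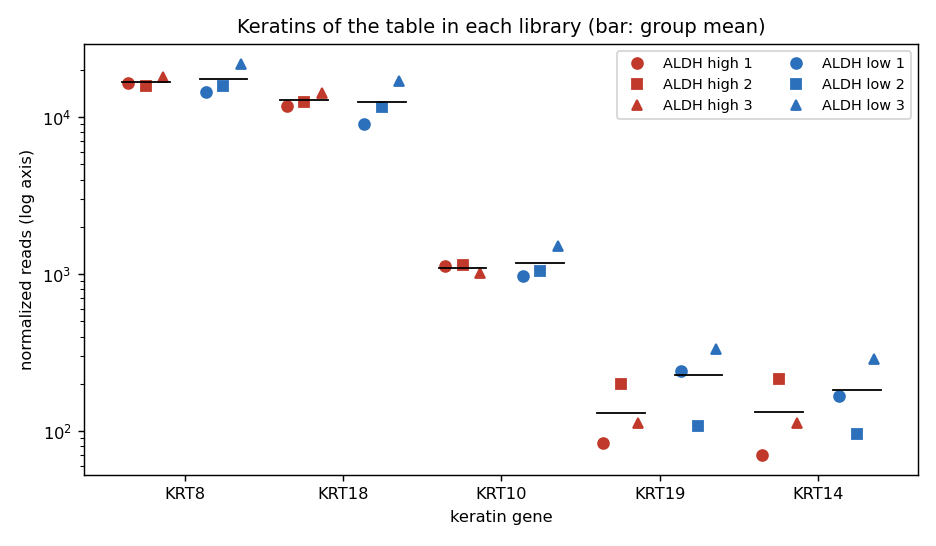
Normalized reads (log axis) of the 5 keratins in each library, ALDH high in red and ALDH low in blue, with a bar at each group mean. KRT8 lies between 14376 and 21943 and KRT19 between 83.8 and 333, and the groups overlap for every gene drawn.

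The ratio of KRT8 to KRT18 varied less than either gene and does not depend on how libraries were scaled. It was 1.39, 1.26 and 1.26 in libraries 1, 2 and 3 of ALDH high, and 1.59, 1.36 and 1.29 in libraries 1, 2 and 3 of ALDH low, as a ratio of normalized reads. The mean ratio was 1.30 ± 0.08 in ALDH high, against 1.42 ± 0.16 in ALDH low (SD, 3 libraries each), with overlapping groups. KRT8 itself spanned 1.53-fold from its lowest to its highest library and KRT18 1.88-fold. Together, KRT8 and KRT18 made up 94.99% ± 1.0 of the reads of the 9 keratins of the table in ALDH high, against 94.2% ± 0.89 in ALDH low. All 9 keratins took 0.117% ± 0.0061 of the gene reads in ALDH high, against 0.115% ± 0.022 in ALDH low.

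Many processed copies of KRT8 and KRT18 lie elsewhere in the genome, and the counts are of uniquely placed reads only. How many reads of either gene were lost in this way was not tested. Stretches of the KRT8 coding sequence were looked up in GENCODE release 29 transcripts of other genes, on either strand and without mismatches. Of those of 50 bases 45.6% occurred there, and of those of 100 bases 8.37%. For KRT18 the shares were 58.0% and 20.4%, part of which comes from KRT8 itself, whose annotated exons cover 16.3% of the exon bases of KRT18 on the opposite strand. Neither the read length nor the use of strand in counting is stated. The levels of both genes may therefore be too low by an amount that cannot be worked out from the table, and were not corrected.

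The table listed 4 KRT8 pseudogenes (KRT8P12, KRT8P3, KRT8P33 and KRT8P46). The longest transcript of each was aligned with the KRT8 coding sequence, and identity was taken over aligned bases only, leaving out gaps. It was 90.5% for KRT8P12, 97.1% for KRT8P3, 95.8% for KRT8P33 and 91.7% for KRT8P46.

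KRT8P12, a transcribed pseudogene on chromosome 3 (160565447 to 160569248), had the most reads of the 4. It had 111, 157 and 135 normalized reads in libraries 1, 2 and 3 of ALDH high, against 130, 116 and 171 in libraries 1, 2 and 3 of ALDH low. KRT8P12 had 0.807% ± 0.170 as many normalized reads as KRT8 in ALDH high, against 0.806% ± 0.088 in ALDH low. Only 2.15% of its stretches of 50 bases occur in another transcript, but it overlaps KPNA4 on the opposite strand over 6.94% of its exon bases. KRT8P3 averaged 54.5 ± 7.76 normalized reads in ALDH high, against 54.9 ± 17.3 in ALDH low, and shares 38.4% of its stretches of 50 bases. KRT8P33 averaged 21.8 ± 9.15 and KRT8P46 11.5 ± 6.33 in ALDH high, against 13.4 ± 5.28 and 13.6 ± 8.13 in ALDH low. None of the 4 passed limma's threshold.

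Among the less abundant members, KRT19 had the largest difference. This type I keratin lies on chromosome 17 (41523617 to 41528308, minus strand) beside KRT15. It had 83.8, 198 and 112 normalized reads in libraries 1, 2 and 3 of ALDH high, against 243, 108 and 333 in libraries 1, 2 and 3 of ALDH low. ALDH high 2 lay well above the other ALDH high libraries and ALDH low 2 well below the other ALDH low libraries, so the groups overlapped. The means were 131 ± 59.5 in ALDH high, against 228 ± 113 in ALDH low (SD, 3 libraries each). On the log2 scale the difference was −0.74 (95% interval −1.68 to 0.19, limma unadjusted p = 0.108, adjusted p = 0.984). In the authors' deposited table, whose fold change is positive where ALDH low is higher, KRT19 had a log2 fold change of 0.79 with an unadjusted p of 0.0456 and an adjusted p of 0.998. Without ALDH high 2 and ALDH low 2 together, an option taken once the data had been seen, limma gave −1.54 (−2.19 to −0.90) with an adjusted p of 0.0718. In that comparison 107 of 16000 genes were called. KRT19 is little affected by copies, since 2.09% of its stretches of 50 bases and none of those of 100 bases occur in another transcript.

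KRT14, the type I keratin of basal cells, was the one basal keratin of the 8 genes in the table (chromosome 17, 41582279 to 41586921, minus strand). It had 70.2, 215 and 112 normalized reads in libraries 1, 2 and 3 of ALDH high, against 167, 95.7 and 286 in libraries 1, 2 and 3 of ALDH low. The highest and the lowest libraries were ALDH low 3 and ALDH high 1, as for KRT19, and the groups overlapped. The means were 133 ± 74.7 in ALDH high, against 183 ± 96.1 in ALDH low (SD, 3 libraries each). They differed by −0.47 on the log2 scale (95% interval −1.48 to 0.53, limma adjusted p = 0.984). The difference was −0.10 without ALDH high 1, −0.08 without ALDH low 3 and −1.29 (limma adjusted p = 0.174) without ALDH high 2 and ALDH low 2. KRT14 had 0.425%, 1.37% and 0.624% as many normalized reads as KRT8 in libraries 1, 2 and 3 of ALDH high, and 1.16%, 0.604% and 1.30% in libraries 1, 2 and 3 of ALDH low. Its type II partner in basal cells, KRT5, was not analysed here.

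KRT14 shares much of its sequence with its neighbours KRT16 and KRT17, which were not among the rows of the table. A stretch of 60 coding bases from the middle of KRT14 shows this, printed 5′ to 3′ from the GENCODE 29 transcripts. Capitals in a relative mark bases that differ from KRT14, and capitals in KRT14 mark positions where either relative differs.
KRT14: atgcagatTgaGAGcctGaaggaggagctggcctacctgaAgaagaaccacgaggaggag
KRT16: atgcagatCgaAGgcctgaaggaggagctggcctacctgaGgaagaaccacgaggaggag
KRT17: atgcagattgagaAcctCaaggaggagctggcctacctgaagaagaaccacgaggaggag
KRT16 differs from KRT14 at 4 of these bases and KRT17 at 2, and the aligned coding sequences are 88.7% and 86.4% identical. Of the stretches in KRT14, 24.6% of those of 50 bases, most often shared with KRT16 or a KRT16 pseudogene, and 7.06% of those of 100 bases occur in another transcript, so its level is uncertain.

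**Figure D2:**
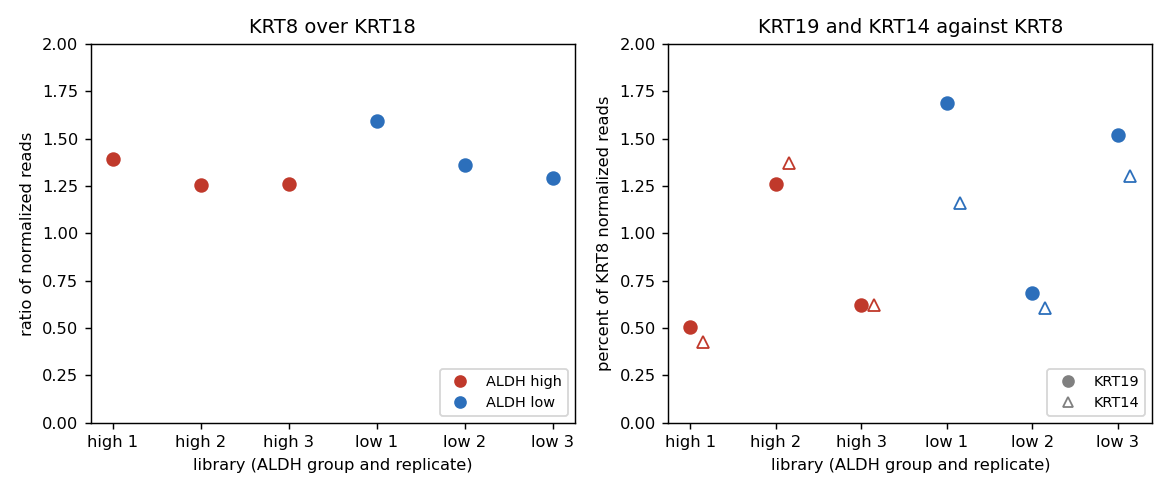
Left, ratio of KRT8 to KRT18 normalized reads in each library, between 1.26 and 1.59. Right, KRT19 (filled circles) and KRT14 (open triangles) as a percentage of KRT8 normalized reads, both lowest in ALDH high 1. ALDH high is red and ALDH low blue.

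The ratio of KRT19 to KRT14 varied less across libraries than either gene. As a ratio of normalized reads it was 1.19, 0.919 and 1.0 in libraries 1, 2 and 3 of ALDH high, and 1.45, 1.13 and 1.16 in libraries 1, 2 and 3 of ALDH low. From its lowest to its highest library KRT19 spanned 3.98-fold and KRT14 4.08-fold. Their standard deviations over the 6 libraries, 0.77 and 0.76 on the log2 scale, compare with a median of 0.23 over genes whose mean reached 100 normalized reads. Of those genes, 99.0% varied less than each of the 2. For KRT8, KRT18 and KRT10 the standard deviations were 0.21, 0.31 and 0.22.

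KRT10, a type I keratin of suprabasal epidermis, lies on chromosome 17 (40818117 to 40822595, minus strand). It had 1119, 1144 and 1009 normalized reads in libraries 1, 2 and 3 of ALDH high, against 973, 1043 and 1500 in libraries 1, 2 and 3 of ALDH low. ALDH low 3 stood above the other libraries, which lay close together, and ALDH low 1 was lowest. The means were 1091 ± 71.6 in ALDH high, against 1172 ± 286 in ALDH low (SD, 3 libraries each). They differed by −0.08 on the log2 scale (95% interval −0.49 to 0.33, limma adjusted p = 0.988). Without ALDH low 3 the difference was 0.11, and without both libraries numbered 2 it was −0.18. KRT10 has few near copies, with 0.528% of its stretches of 50 bases found elsewhere, in TMEM99, which overlaps 2.61% of its exon bases on the opposite strand.

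Levels between genes were compared per kilobase of annotated exon. KRT18 had 3998 ± 379 normalized reads per kilobase in ALDH high, against 3901 ± 1262 in ALDH low, and KRT8 had 2432 ± 165 and 2527 ± 583 in the same groups. This order depends on the length used, since the KRT8 exons span 6881 bases over all transcripts and its longest transcript 2862. Per kilobase of longest transcript, the ratio of KRT8 to KRT18 averaged 0.992 over the 6 libraries, and per kilobase of coding sequence 1.14, against 0.636 with all exons. KRT10 followed with 509 ± 33.4 normalized reads per kilobase in ALDH high, against 546 ± 133 in ALDH low. KRT19 had 56.2 ± 25.5 in ALDH high, against 97.6 ± 48.4 in ALDH low, and KRT14 had 58.1 ± 32.8 and 80.2 ± 42.1. With all exons the order of KRT19 and KRT14 changed between libraries. Per kilobase of longest transcript KRT19 lay above KRT14 in every library, with means of 129 and 94.9. Per kilobase of all exons, KRT18 ranked 297, KRT8 505, KRT10 2499, KRT19 8877 and KRT14 9265 among the genes of the table.

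Of the 54 functional keratin genes listed, 9 were in the table, 5 of type I and 4 of type II, and the keratins outside the 8 named genes were KRT20, KRT75, KRT6C and KRT80. KRT20, a type I keratin of gut and bladder epithelium, had 57.6, 86.7 and 67.4 normalized reads in libraries 1, 2 and 3 of ALDH high, against 98.8, 59.5 and 90.0 in libraries 1, 2 and 3 of ALDH low. KRT75, a type II keratin of hair follicles, had 31.4, 72.1 and 51.4 in libraries 1, 2 and 3 of ALDH high, against 77.1, 49.8 and 123 in libraries 1, 2 and 3 of ALDH low. KRT80 was the steadiest of the low keratins, with 35.6, 53.8 and 41.2 in libraries 1, 2 and 3 of ALDH high, against 45.0, 44.9 and 50.3 in libraries 1, 2 and 3 of ALDH low. The ALDH groups overlapped for each of the 3. On the log2 scale KRT20 differed by −0.21 (95% interval −0.88 to 0.45), KRT75 by −0.66 (−1.56 to 0.24) and KRT80 by −0.12 (−0.80 to 0.56). Without both libraries numbered 2, KRT20 differed by −0.59 (−1.24 to 0.06), KRT75 by −1.26 (−2.16 to −0.35, limma adjusted p = 0.204) and KRT80 by −0.31 (−1.08 to 0.46).

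KRT6C, a type II keratin of stratified and injured epithelium, varied most. It had 13.6, 70.3 and 9.14 normalized reads in libraries 1, 2 and 3 of ALDH high, against 71.9, 17.6 and 70.7 in libraries 1, 2 and 3 of ALDH low. Behind these values stood 13, 77 and 8 recovered reads in ALDH high, against 83, 18 and 66 in ALDH low. On the log2 scale the difference was −1.07 (95% interval −2.71 to 0.58, limma adjusted p = 0.984). Without ALDH high 2 and ALDH low 2 it was −2.57, with a limma adjusted p of 0.0497, just under the threshold. Those libraries were left out once the data had been seen, by a component that KRT6C helped to define. The smaller p is therefore no independent support for a difference. KRT6C is close to identical with KRT6A and KRT6B, which were not among the rows, as 60 coding bases from its middle show (capitals as above).
KRT6C: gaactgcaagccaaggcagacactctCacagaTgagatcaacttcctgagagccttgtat
KRT6A: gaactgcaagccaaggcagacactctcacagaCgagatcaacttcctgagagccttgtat
KRT6B: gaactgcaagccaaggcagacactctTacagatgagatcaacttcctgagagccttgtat
Each relative differs at 1 of these bases, and the coding sequences are 97.9% (KRT6A) and 98.5% (KRT6B) identical to KRT6C. Of the stretches in KRT6C, 71.6% of those of 50 bases and 42.2% of those of 100 bases occur in another transcript. Reads that fit several genes equally well are not counted, so the level of KRT6C is uncertain.

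The low keratins shared an order of libraries that KRT8, KRT18 and KRT10 did not have. In 6 of the 9 keratins (KRT19, KRT14, KRT6C, KRT75, KRT20 and KRT80) the 3 highest values were those of library 2 of ALDH high and libraries 1 and 3 of ALDH low, an arrangement found in 12% of the 16000 genes. For KRT80 the margin was small, with 45.0 in ALDH low 1 and 44.9 in ALDH low 2. It is the arrangement of the first principal component, noticed in these data and crossing the ALDH groups. The same libraries had more reads on genes, 27854566 to 30467638 against 23721265 to 26891790 in the others, and a smaller share of mitochondrial transcripts, 2.01% to 2.996% against 4.55% to 4.90%. The part of depth and of mitochondrial transcripts in the keratin values was not tested. ALDH low 3 was the highest library for all 5 members of the table and for KRT75.

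**Figure D3:**
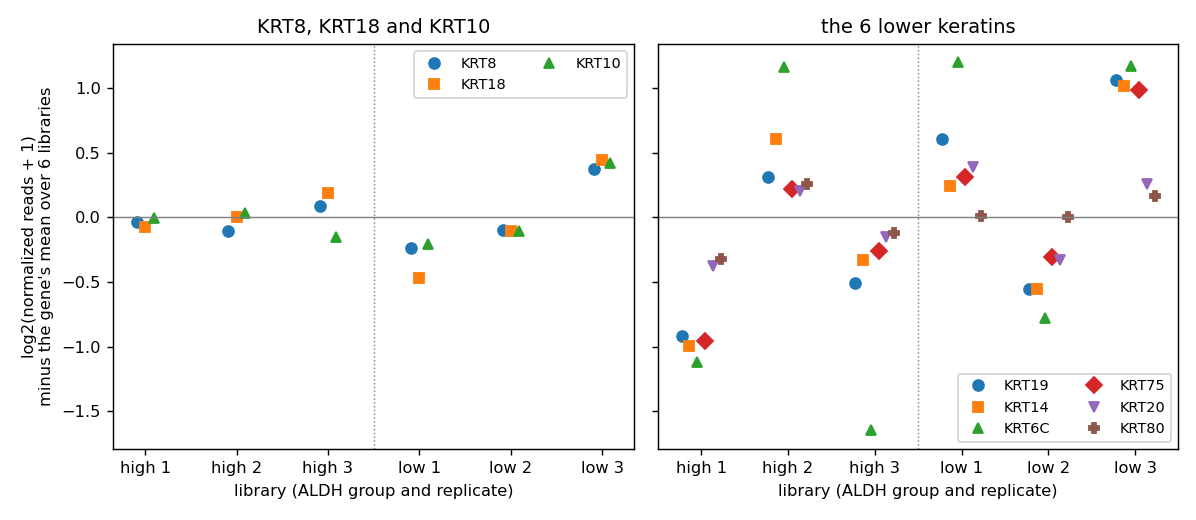
log2(normalized reads + 1) of each keratin minus the mean of that gene over the 6 libraries, by library, with ALDH high left of the dotted line and ALDH low right of it. KRT8, KRT18 and KRT10 vary less than KRT19, KRT14, KRT6C and KRT75, which lie above 0 in library 2 of ALDH high and libraries 1 and 3 of ALDH low and below 0 in the other libraries.

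Of the 9 keratins, 8 had log2 differences below 0 and KRT18 lay above 0, with a median of −0.21, where 47.7% of all genes lay below 0 and their median was 0.02. With total-count scaling KRT8 also lay above 0 (0.01), and the median of all genes was 0.06. None of the 9 was called, and with libraries and sequence shared between them they are not independent of one another.

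**Figure D4:**
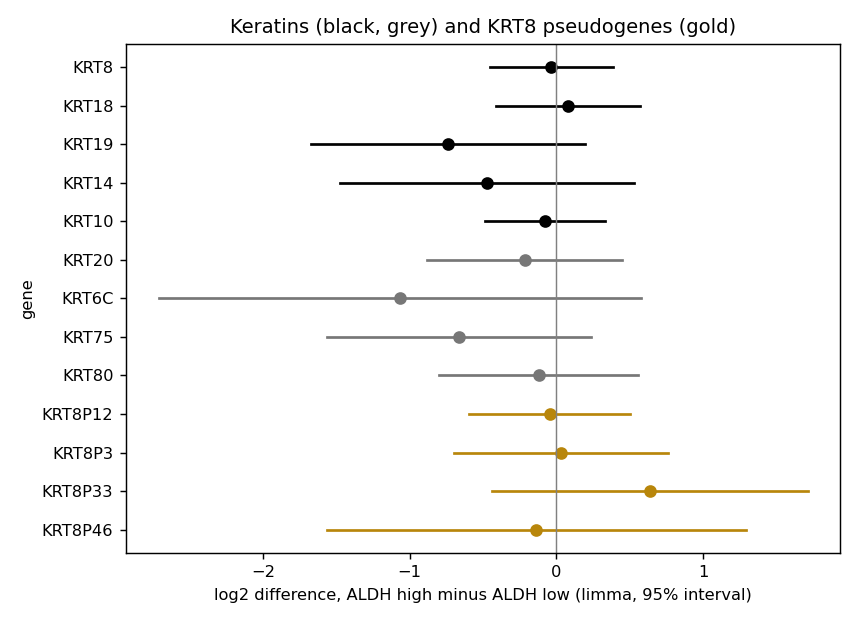
Log2 difference, ALDH high minus ALDH low, with its 95% interval from limma, for the 5 keratins of luminal and basal epithelium (black), the other 4 keratins (grey) and the 4 KRT8 pseudogenes (gold). Every interval includes 0, and those of KRT8, KRT18 and KRT10 are the narrowest, within −0.49 to 0.57.

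Genes of the structures that keratin filaments attach to were listed as partners, among them desmosomal plaque proteins, plakins and hemidesmosome subunits. Of 21 listed, 17 were in the table, of which 16 differed by more than 0 and 1 by less, where 47.7% of all genes lay below 0. Their median was 0.12 against 0.02 for all genes, and 0 passed the threshold. Summed over the 17, normalized reads ranged from 42542 to 58481 in ALDH high libraries and from 43501 to 46998 in ALDH low libraries. The largest sum was that of ALDH high 2, and how far the count of 16 rests on that library was not tested. The 17 share the same libraries and are not independent of one another. PLEC, which encodes the linker protein plectin, had 4288, 7222 and 4144 normalized reads in libraries 1, 2 and 3 of ALDH high, against 4450, 3973 and 3551 in libraries 1, 2 and 3 of ALDH low. Its log2 difference of 0.34 (−0.13 to 0.82) rests on ALDH high 2, the highest library, and was 0.08 without both libraries numbered 2. DST, which encodes the hemidesmosomal plakin BPAG1 and also stands among the basal markers, averaged 419 ± 42.9 in ALDH high, against 313 ± 118 in ALDH low (SD, 3 libraries each). Libraries 1, 2 and 3 had 404, 467 and 385 normalized reads in ALDH high, against 372, 390 and 177 in ALDH low. The log2 difference was 0.50 (−0.13 to 1.13), and 0.62 without both libraries numbered 2. Both values rest largely on ALDH low 3, by far the lowest library for DST, which was kept in each. Of 13 other intermediate filament genes 6 were in the table, 5 differing by more than 0 and 1 by less (median 0.08), and VIM, the filament gene of mesenchymal cells, was not among the rows.

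The luminal and basal marker lists, keratins aside, were not called either. Luminal markers were above 0 in 6 cases and below in 5 (median 0.13) and basal markers above in 6 and below in 4 (median 0.06), and 0 passed the threshold in either list. The most abundant were KLK3 (prostate-specific antigen), at 84410 ± 3629 normalized reads in ALDH high, against 87807 ± 12287 in ALDH low, KLK2, a related kallikrein, at 24861 ± 5595 and 22248 ± 2422, and HOXB13, a prostate transcription factor, at 18162 ± 841 and 19966 ± 2605 (SD, 3 libraries each). CD24, a surface protein used as a luminal marker, had the largest difference of the 4 lists, 0.55 (−0.24 to 1.35), with 151, 85.8 and 186 normalized reads in libraries 1, 2 and 3 of ALDH high, against 66.7, 139 and 81.4 in libraries 1, 2 and 3 of ALDH low. Its high libraries were the low ones of KRT19, and the groups overlapped. Without both libraries numbered 2 its difference was 1.17 (0.55 to 1.80, limma adjusted p = 0.125). CD24 follows the arrangement by which those libraries were left out, so the larger value is no independent support for a difference.

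Genes whose pattern over the 6 libraries was most like that of each keratin were ranked by Pearson r of log2(normalized reads + 1), over 11505 genes whose mean reached 100. With 6 libraries high r values are common, and these are a description only. The part of the arrangement described above in them was not tested, and KRT8, KRT18 and KRT10 did not have it. KRT8 was most like NDUFV3 (r = 0.998), IER2 (0.998) and NAA10 (0.997), and 196 genes had an r above 0.95. KRT18 was most like STK11IP (r = 0.997), PPDPF (0.993) and APOL2 (0.992), with 88 genes above 0.95. KRT19 was most like KEAP1 (r = 0.997), GLYATL2 (0.995) and AC233723.2 (0.993), with 148 above 0.95. KRT14 was most like ST13 (r = 0.996), AC099343.3 (0.996) and KCTD11 (0.993), with 67 above 0.95. KRT10 was most like SOX8 (r = 0.997), METTL1 (0.996) and TMEM109 (0.992), with 116 above 0.95. No keratin stood among the 3 genes nearest to another. Between the members themselves r was 0.940 for KRT8 with KRT18 and 0.957 for KRT19 with KRT14, and 0.321 for KRT8 with KRT19.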

How the data were processed

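RNA from 3 ALDH high and 3 ALDH low LNCaP samples was analysed. The submitters' processing notes name Trimmomatic 0.36, STAR 2.5.2b, Subread 1.5.2 with its featureCounts, DESeq2 and the build GRCh38. Per the labels, uniquely placed reads in exons were counted per gene. The authors deposited a normalized signal per gene and sample, that is, the read count over a size factor of the sample, with the authors' log2 fold change (positive where ALDH low is higher) and p-value. The 46 ERCC spike-in rows were left out, which left 16000 genes. Whole reads were recovered from the steps of the values, and in every sample 99.99% or more of them were whole to within 0.02 of a read.

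The main test was limma 3.58.1 (R 4.3.3) using a mean-variance trend, run on log2(normalized reads + 1), with Benjamini-Hochberg adjustment over all genes and a cut-off at 0.05. Every difference is ALDH high minus ALDH low in these log2 units, in which the added 1 shrinks changes of low genes. Such a difference is still no lower bound. For KRT6C edgeR gave −0.76 and DESeq2 −0.77, against −1.07 with limma. Alternatives were edgeR 4.0.16 and DESeq2 1.42.0 on the recovered reads, other pseudocounts (0.5 and 5), a minimum mean of 100, total-count scaling, the replicate number as a block, each library left out, and both samples numbered 2 left out. The scripts were tested on simulated data.

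The members and lists were chosen with earlier results of these data known. Genes outside the keratins were named by a rule: over the partner, filament, luminal and basal lists together, the 3 with the highest mean and the 3 with the largest absolute difference among means of at least 100, and for each member the 3 genes most like it. Coordinates, exon lengths and sequences are from GENCODE release 29 (GRCh38), which matched 15939 of the 16000 identifiers, and 66 missing or date-like names were restored from it. Coding sequences were aligned with Biopython 1.88.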

Additional observations from a re-analysis of the deposited data

How the results depend on the processing

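The count of called genes was 0 under each of the other alternatives and 107 without ALDH high 2 and ALDH low 2, a choice made with the data in view, which called KRT6C (−2.57) among the keratins. Of 122 log2 differences of single keratins under the alternatives, 115 kept their sign and their side of the threshold and 6 turned sign. Total-count scaling turned KRT8 to 0.012. Leaving out 1 library at a time gave ranges of −0.16 to 0.15 for KRT8, −0.13 to 0.32 for KRT18, −1.20 to −0.40 for KRT19, −0.90 to −0.08 for KRT14, −0.20 to 0.11 for KRT10, −1.92 to −0.51 for KRT6C, −0.98 to −0.34 for KRT75, −0.43 to −0.07 for KRT20 and −0.28 to 0.011 for KRT80. The causes were not tested. Among levels per kilobase, the ratio of KRT8 to KRT18 was 0.636 with all exons, 0.992 with the longest transcript and 1.14 with coding sequence, and that of summed type II to type I keratins 0.548, 0.883 and 1.05, since each uses another length.

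The replicate block called 0 genes and left the keratin differences as they were, with −0.03 for KRT8, 0.08 for KRT18, −0.74 for KRT19, −0.47 for KRT14 and −0.08 for KRT10. Samples with the same number did not deviate together: the correlation across genes of their deviations from the group means was −0.46, −0.43 and 0.14 for numbers 1, 2 and 3. Whether the numbers pair the samples cannot be told from this, since both samples numbered 2 lay with samples of the other group. With 8 to 83 recovered reads, KRT6C is limited by depth.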
